A study of Mus musculus with 2 samples.

Results

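The Acsm, Acsf and Acss genes encode acyl-CoA synthetases, enzymes that join a carboxylic acid to coenzyme A. The 9 genes described here, Acsm1, Acsm2, Acsm3, Acsm5, Acsf2, Acsf3, Acss1, Acss2 and Acss3, are 9 of the 20002 genes in the deposited table. They were taken by symbol. The families were chosen by the measured log2 ratios of this same comparison, in which Acsm3 and Acsf2 had been the lowest and the highest gene of fatty acid oxidation. The ratios below are therefore a description of 2 libraries and not a test.

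RNA-seq was performed on whole kidney of mice, with 1 library from a control group and 1 from Reg-2 CKO mice. The Reg-2 CKO mice received, by tail vein at 11 weeks of age, an adeno-associated virus of serotype 9 (AAV9) that carried a short hairpin RNA (shRNA) against Regnase-2, an mRNA decay factor encoded by Zc3h12b. The control mice received AAV9 too, described in one place as carrying an empty vector and in another as carrying a control shRNA. The model is thus a viral knockdown begun in adult mice, not a floxed allele, although the labels name it a conditional knockout of proximal tubules. Kidneys for sequencing are given as taken at 14 weeks of age, whereas the account of the AAV9 injection gives 16 weeks, and the sources used here do not say whether a library held RNA of 1 mouse or of several. The methods name C57BL/6J as the purchased strain, and the labels give no sex. RNA came from the left kidney, was prepared with a stranded poly(A) kit and was sequenced to reads of 100 bases. No difference below has a replicate check, because each group had 1 library.

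The deposited normalized counts were taken, as an inference from their values, to be reads plus a constant in each column. The reads and counting intervals below hold only if this is so. After the constant of each column was removed, the control library held 38851231 reads over genes and the CKO library 43588721. The median gene had 284.0 reads in the former and 513.5 in the latter. Reads of the CKO library were multiplied by 0.667 to bring the libraries to a common scale, and these are called scaled reads. Zc3h12b, the target, had 47 control reads and 59 CKO reads, or 39.3 after scaling. The log2 ratio of CKO over control was -0.25, and its 95% interval (Clopper-Pearson), which like all intervals here covers counting error alone, ran from -0.83 to 0.33. A difference in the target was not detectable at this depth, so it does not check the labels, and CKO below means the library with that label. Making the totals of the libraries equal would raise the median log2 ratio of expressed genes by 0.42. Using the values as deposited would raise it by 0.55, with all 20002 genes kept. Ratios a little below 0 thus depend on the scaling, and a direction is given below as it stands with the factor of 0.667.

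Acyl-CoA synthetases activate fatty acids and other carboxylic acids, which must be bound to coenzyme A before they can be oxidised, conjugated to glycine or built into lipids. The families differ in the length of acid they take: Acss enzymes use acetate and propionate, Acsm enzymes use medium-chain fatty acids and aromatic acids such as benzoate, and long-chain acids are handled by the Acsl family. The proximal tubule, which lives largely on fatty acid oxidation, is rich in mitochondria and is a known site of Acsm expression.

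The 4 Acsm genes described here lie in 1 cluster, in the order Acsm5, Acsm2, Acsm1 and Acsm3, within chr7:119526131-119784896 of GRCm38, the mm10 build named in the submitters' processing notes. All 4 are on the plus strand. Acsm4, between Acsm1 and Acsm3, was not analysed here. Acsm3 (Gene ID 20216), which encodes a mitochondrial medium-chain synthetase, had 23771 control reads and 1751 CKO reads, or 1167 after scaling. It was 20.4-fold lower, with an interval of 19.4 to 21.4, a log2 ratio of -4.35. Of the 17469 expressed genes, meaning those with at least 10 scaled reads in 1 library, 4 had a lower ratio.

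Acsm2 (Gene ID 233799), a mitochondrial medium-chain ligase known for its abundance in the kidney, had 253157 control reads and 71203 scaled CKO reads. It was 3.56-fold lower (interval 3.53 to 3.58), a log2 ratio of -1.83. Acsm1 (Gene ID 117147), whose product activates butyrate and aromatic acids in mitochondria, had 21439 control reads and 7130 scaled CKO reads. This was 3.01-fold lower (2.94 to 3.08), a log2 ratio of -1.59, or -0.999 and just short of 2-fold with the values as deposited. The fall of Acsm3 was the largest of the 9 under each of the scalings tried, as is to be expected of a gene by which the families were picked.

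Acsm5 (Gene ID 272428) had 6536 control reads and 3847 scaled CKO reads, a log2 ratio of -0.76 (interval -0.82 to -0.71). It was the Acsm gene with the smallest difference, although it adjoins Acsm2 on the chromosome. Ratios taken within a library do not depend on the scaling between libraries. For each 100 reads of Acsm1, the control library held 110.9 reads of Acsm3 (interval 108.8 to 112.9) and the CKO library 16.4 (15.6 to 17.2). For each 100 reads of Acsm2 there were 2.58 reads of Acsm5 (2.52 to 2.65) in the control library and 5.40 (5.26 to 5.55) in the other. The genes of the cluster therefore did not share 1 ratio, and the balance among them differed between the libraries.

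Other protein-coding genes in the same interval and next to it were looked up after these values were seen. Thumpd1, between Acsm1 and Acsm3, had a log2 ratio of -0.05, and Ppp1ccb, also between them, 0.09. Eri2, which overlaps the end of Acsm3 on the opposite strand, was at -0.13. Past it, Rexo5 was at -0.84, Dcun1d3 at -0.26, Lyrm1 at -0.55 and Dnah3 at -1.42, the last on 84 control reads and 30.7 scaled CKO reads. On the other side of the cluster, Pdilt was at 0.19, Umod, the uromodulin gene of the thick ascending limb, at 0.47 and Gp2 at 0.23. Of the neighbours within 200 kb that are in the table, Dnah3 alone was past 2-fold.

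The sequences before the starts of the 3 Acsm genes that were at least 2-fold lower are shown because these genes differed in the same direction. They are 180 bases each of the RefSeq promoter windows (GRCm38.p6), written 5′ to 3′ and ending just before the outermost RefSeq start of the gene. Positions are counted from the start used in the RefSeq window. Capitals mark matches to any of 6 motifs searched on both strands, namely AGGTCA, the core bound by many nuclear receptors; AGAACA, a core of steroid receptor elements; GTTAAT, a core of HNF1 sites; CAAAGTCCA, an HNF4 site; CACCCCAC, the core of a sterol element; and TATAAA, the TATA box. No 2 of the matches in these windows overlapped. The Acsm1 run lies in an intron of a longer GENCODE model.
Acsm1, chr7:119617577-119617756, plus strand: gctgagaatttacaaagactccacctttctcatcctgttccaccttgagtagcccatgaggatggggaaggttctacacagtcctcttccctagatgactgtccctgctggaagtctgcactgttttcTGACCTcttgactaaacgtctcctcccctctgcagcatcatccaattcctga
Acsm2, chr7:119554160-119554339, plus strand: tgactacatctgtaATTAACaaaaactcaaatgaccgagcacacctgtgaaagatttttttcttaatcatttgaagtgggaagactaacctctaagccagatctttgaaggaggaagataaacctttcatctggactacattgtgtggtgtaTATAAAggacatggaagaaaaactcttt
Acsm3, chr7:119760703-119760882, plus strand: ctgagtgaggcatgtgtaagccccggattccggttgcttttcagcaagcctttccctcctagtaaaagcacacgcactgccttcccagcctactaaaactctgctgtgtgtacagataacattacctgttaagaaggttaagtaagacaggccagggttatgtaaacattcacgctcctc

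In the Acsm1 window AGGTCA was found on the minus strand from -107 to -102. In the first Acsm2 window TATAAA stood on the plus strand from -28 to -23, GTTAAT on the minus strand from -166 to -161, and AGAACA on the minus strand from 13 to 18, past the printed run. The Acsm3 window held none of the 6 motifs. Over all 32851 windows of 300 bases, 16.3% held AGGTCA, 19.0% AGAACA, 7.10% GTTAAT, 0.475% CAAAGTCCA, 2.87% CACCCCAC and 13.6% TATAAA. A window was given for 8 of the 9 genes, all but Acss3, and 9 windows in all because Acsm2 has 2. Of these 9, 1 held AGGTCA, 1 AGAACA, 1 GTTAAT and 1 TATAAA, and 0 held CAAAGTCCA or CACCCCAC. No motif was thus shared by the 3 Acsm genes. The 5 windows of Acsm genes held 1 to 7 CpG dinucleotides, whereas those of Acsf3, Acss2, Acss1 and Acsf2 held 15, 20, 23 and 29. The median over all windows was 7.

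Acsf2 (Gene ID 264895, chr11:94557102-94602139, minus strand) encodes a mitochondrial medium-chain synthetase outside the Acsm family. It had 495 control reads and 762.0 scaled CKO reads. It was 1.54-fold higher (interval 1.38 to 1.71), a log2 ratio of 0.62. Acsf3 (Gene ID 257633, chr8:122775470-122817887, plus strand) encodes the malonyl-CoA synthetase that feeds fatty acid synthesis in mitochondria. It had 1910 control reads and 1115 scaled CKO reads, a log2 ratio of -0.78 (interval -0.87 to -0.68). The Acsf genes thus lay on opposite sides of the control. Within a library, there were 25.9 reads of Acsf2 for each 100 of Acsf3 in the control (interval 23.4 to 28.6) and 68.3 in the other (63.3 to 73.7).

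Acss1 (Gene ID 68738, chr2:150618111-150668240, minus strand), the acetyl-CoA synthetase of mitochondria, had 6285 control reads and 6459 scaled CKO reads. Its log2 ratio was 0.04, with an interval of -0.01 to 0.09. Acss2 (Gene ID 60525, chr2:155518043-155562743, plus strand) makes acetyl-CoA from acetate in the cytosol and nucleus. It had 12287 control reads and 5373 scaled CKO reads and was 2.29-fold lower (interval 2.22 to 2.35), a log2 ratio of -1.19, but it was not past 2-fold with equal totals (-0.77) or with the values as deposited (-0.60). Acss3 (Gene ID 380660, chr10:106933514-107123761, minus strand), a mitochondrial enzyme that takes propionate, had 507 control reads and 508.7 scaled CKO reads, a log2 ratio of 0.00 (-0.16 to 0.17). A difference of Acss1 or Acss3 was not detectable at this depth with the scaling used, and both were higher with equal totals, at 0.46 and 0.42. The proportion of reads between the acetate enzymes does not depend on the scaling, and for each 100 reads of Acss2 the control library held 51.2 reads of Acss1 (interval 49.6 to 52.7) and the CKO library 120.2 (116.7 to 123.8).

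**Figure D1:**
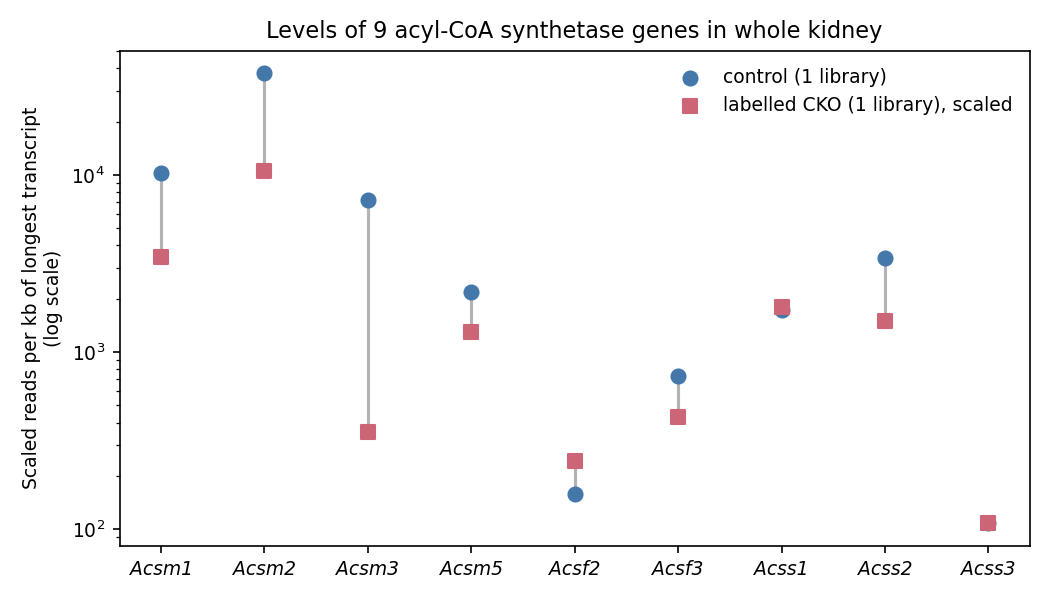
Levels of the 9 genes in the control library (circles) and the CKO library (squares), as scaled reads per kilobase of the longest annotated transcript on a log axis, with 1 library per group. Acsm3 moves from rank 3 of the 9 in the control to rank 7, while Acsm2 and Acsm1 hold ranks 1 and 2 in both libraries.

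Levels of different genes were compared per kilobase of the longest GENCODE transcript. In the control library Acsm2 was highest with 37572 reads per kilobase, followed by Acsm1 with 10292 and Acsm3 with 7214. Acss2 followed with 3405, Acsm5 with 2193, Acss1 with 1737 and Acsf3 with 733.5. Acsf2 and Acss3 were lowest with 156.9 and 108.0. In the CKO library the order began with Acsm2 at 10567 scaled reads per kilobase and Acsm1 at 3423. Acss1 came next at 1785, then Acss2 at 1489 and Acsm5 at 1291. Acsf3 at 428.3 and Acsm3 at 354.3 were followed by Acsf2 at 241.6 and Acss3 at 108.3. Per kilobase of all exons joined, Acss2 took rank 6 in the control library and rank 5 in the other in place of rank 4, while Acsm3 held rank 3 and rank 7 as before.

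Together the 9 genes took 326387 control reads, 0.840% of that library, and 146347 CKO reads, 0.336%. Acsm2 alone made up 77.6% of them in the control library and 73.0% in the other. Without Acsm2, the other 8 genes had 73230 reads against 26362 scaled reads. The sum of the 9 therefore describes mainly Acsm2, and the ratios of single genes carry more information than the total.

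All 9 genes passed the filter on low values in both libraries. Of the 9, 4 were lower in CKO by 2-fold or more (Acsm1, Acsm2, Acsm3 and Acss2), where 5.35% of the expressed genes were, and 0 were at least 2-fold higher, where 13.4% were. With equal totals, 3 were lower, without Acss2, and 1, Acsf2, was higher. Just inside the threshold was Acss2 at -1.19 and just outside it was Acsf3 at -0.78. The median log2 ratio of the 9 was -0.78, against 0.02 over all expressed genes. These counts rest on the contrast from which the families were picked, so nothing is read from them.

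**Figure D2:**
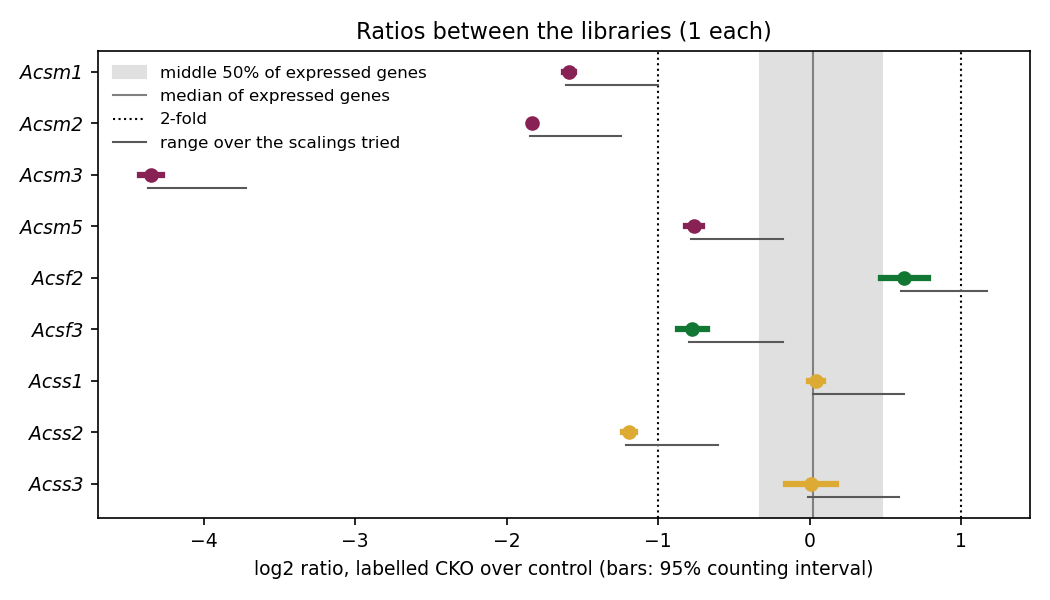
Log2 ratios of the CKO library over control for the 9 genes, with 95% counting intervals (thick bars) and the range over the scalings tried (thin lines below them). The grey band holds the middle 50% of expressed genes, from -0.33 to 0.48, and dotted lines mark 2-fold. Acsm3 at -4.35 lies far to the left of the other 8, and Acsf2 at 0.62 is the farthest to the right.

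The ratio over all genes varied with the level of expression. In bands of mean scaled reads, chosen after the values were seen, 432 genes had at least 10000, and their median log2 ratio was -0.59. Of these, 78 (18.1%) were at least 2-fold lower and 7 (1.62%) at least 2-fold higher. Acsm1, Acsm2 and Acsm3 belong to this band. The 5512 genes from 1000 to 10000 had a median of -0.15, and 3.99% were at least 2-fold lower. This band held Acsm5, Acsf3, Acss1 and Acss2. Acsf2 and Acss3 fell among the 6699 genes from 100 to 1000, which had a median of 0.12. Abundant genes as a class were thus lower with the scaling used. The bands were not computed under other scalings, and equal totals or the values as deposited raised the median of expressed genes by 0.42 or 0.55. Acsm1 and Acsm3 reached the highest band through their control reads, with 7130 and 1167 scaled reads in the CKO library. Nothing is therefore read from their place in it.

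Markers of kidney cells differed between the libraries in the same samples. As background for the counts of this and the later lists, 48.3% of the expressed genes were lower with the scaling used. By at least 2-fold, 5.35% were lower and 13.4% higher. Of 15 proximal tubule markers, 13 were lower, 5 of them by 2-fold or more (Slc22a6, Ggt1, Mep1a, Slc34a1 and Miox), and their median log2 ratio was -0.87 (-0.45 with equal totals, -0.28 with the values as deposited). The other 2 were higher, Slc13a1 at 0.73, with 9080 and 15073 scaled reads, and Slc5a12 at 0.41, with 25259 and 33559. Their sum was 724259 reads in the control library and 388352 scaled reads in the other, and Slc34a1, the phosphate transporter, had the most reads, 147064 and 65416. In bulk tissue, the number of proximal tubule cells and the RNA per cell cannot be told apart. Relative to the median of these markers, Acsm5 was at 0.11, Acsf3 at 0.10 and Acss2 at -0.32 on the log2 scale. Acsm1 was at -0.71, Acsm2 at -0.96 and Acsm3 at -3.47 relative to it, while Acss3, Acss1 and Acsf2 were at 0.88, 0.91 and 1.49. For each 100 reads of Slc34a1 the control library held 16.2 reads of Acsm3 (interval 15.9 to 16.4) and the CKO library 1.78 (1.70 to 1.87). The difference of Acsm3 was larger than that of each of the 15 markers, whose lowest was Slc22a6 at -1.62. The families were picked by Acsm3 as an extreme of this contrast, so nothing is read from this. The part of the proximal tubule shift in the ratios of the 9 genes was not tested.

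All 8 of 8 genes of a list known for higher expression in male mouse kidney were lower, 7 of them at least 2-fold, with a median log2 ratio of -2.82. Their sum was 1311564 reads in the control library and 127709 scaled reads in the other. Kap, the androgen-regulated protein of proximal tubules and the gene of the list with most reads, had 987520 and 69442 scaled reads, a log2 ratio of -3.83. Cyp7b1 was the lowest at -3.99 and Akr1c21 the highest at -0.78. Slco1a1, an organic anion transporter on that list, was at -3.88. For each 100 reads of Slco1a1 there were 114.9 of Acsm3 (interval 112.7 to 117.0) in the control library and 82.8 (77.7 to 88.3) in the CKO library. Slco1a1 was the expressed gene nearest to Acsm3 in these same values, so nothing is read from this ratio. Acsm3, at -4.35, was lower than all 8 of these genes, and Acsm2 and Acsm1 lay between Akr1c21 and the other 7. As Acsm3 was an extreme by which the families were picked, nothing is read from its place. The labels give no sex. The Y-linked genes Ddx3y, Eif2s3y, Kdm5d and Uty, looked up after these values were seen, had 1920, 2129, 737 and 950 control reads and 1870, 2532, 842.0 and 1233 scaled CKO reads, so both libraries held RNA of male mice. Whether either library also held RNA of female mice was not tested. The part of the shift of the male-biased genes in the ratios of the Acsm genes was not tested.

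By distance on the log2 reads of both libraries, the expressed genes most like Acsm3 were Slco1a1 (distance 0.34), Akr1c14 (1.25), which had a log2 ratio of -3.06, and Cyp7b1 (1.28). Those most like Acsf2 were Crispld2 (0.01), Spink8 (0.02) and Nup155 (0.03), with log2 ratios of 0.64, 0.61 and 0.58. With 2 libraries this likeness rests on 2 values a gene. The nearest genes lay farther from Acsm3 than from Acsf2.

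**Figure D3:**
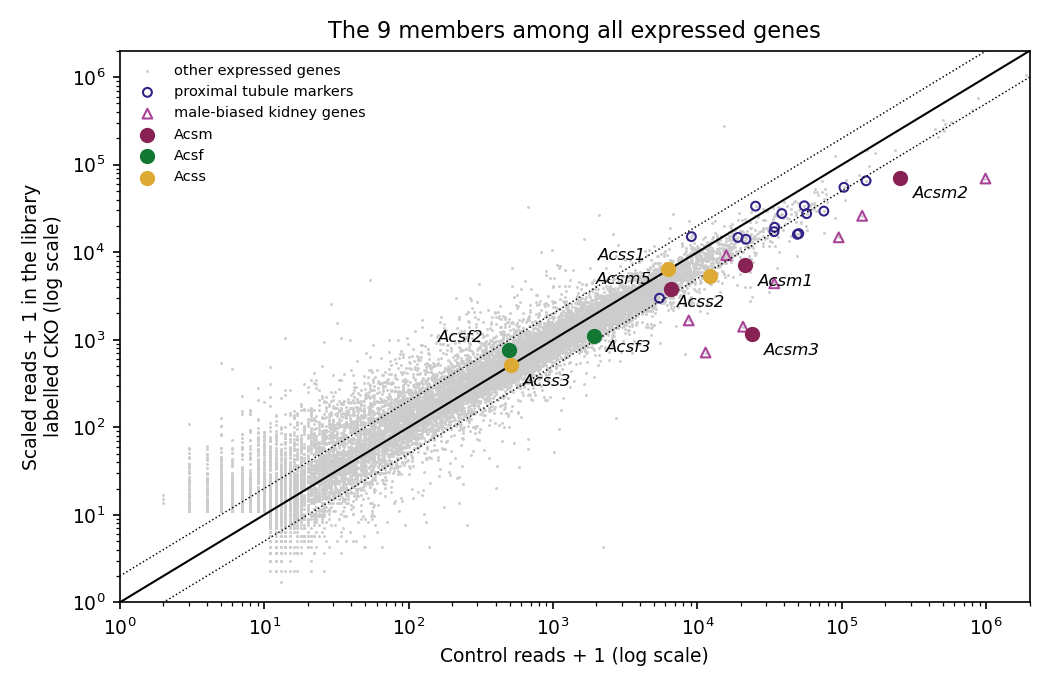
Control reads against scaled reads of the CKO library, both plus 1 and on log axes, for all 17469 expressed genes (grey), the 9 members (filled circles by family), 15 proximal tubule markers (open circles) and 8 male-biased genes (triangles). The solid line marks equal values and the dotted lines 2-fold. Acsm3, at 23771 against 1167 reads, lies among the male-biased genes, below the proximal tubule markers.

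Tubular injury markers were higher. Of 9 listed, 8 were in the table and 8 were at least 2-fold higher, with a median log2 ratio of 3.75 and a sum of 20341 reads in the control library and 325925 scaled reads in the other. Spp1 had the most reads, 15360 and 274813, and Lcn2 was the highest at 6.45 and Vim the lowest at 1.56. Of 10 macrophage markers, 10 were higher and 9 at least 2-fold higher, with a median of 2.77, a sum of 6383 and 32910 scaled reads, and Cd74 as the gene with most reads (2610 and 15971); Ms4a7 was the highest at 4.33 and Csf1r the lowest at 0.51. As the constant was removed so that each gene kept at least 1 read, no gene of any list could be at 0. Of 10 markers of other nephron segments, 5 were lower and 5 higher, with a median of -0.03 (0.39 with equal totals) and a sum of 149902 and 183757 scaled reads, Umod having the most reads and Aqp2 the highest ratio, 0.79. Of 4 vessel markers, 3 were lower, none by 2-fold, with a median of -0.11 (0.31 with equal totals), a sum of 7231 and 6257 and the most reads in Kdr, the lowest at -0.67, while Emcn was the highest at 0.14. The 6 adipocyte markers were not analysed here. Of 5 hepatocyte markers, 4 were in the table, 3 lower and 1 higher, 2 and 1 of them by at least 2-fold, with a median of -0.95 (0.19 with the values as deposited) and a sum of 3128 and 884.0 scaled reads, most of them of Ttr at -2.33, while Serpina1a was the highest at 1.09. The part of these cell types in the ratios of the synthetases was not tested.

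The long-chain synthetases activate longer fatty acids. Of 9 in the table, 3 were lower and 6 higher, 1 and 2 of them by at least 2-fold, with a median log2 ratio of 0.11 (0.52 with equal totals), against 0.02 over all expressed genes. Slc27a2, the very-long-chain synthetase and fatty acid transporter, had 157696 and 67092 scaled reads, a log2 ratio of -1.23, and made up most of the sum of the list, 170772 and 81565 scaled reads. Acsl1, which serves oxidation, was at -0.22 and Acsl5 at 0.48. Acsl4, which prefers arachidonate, had 1473 and 2951 scaled reads, a log2 ratio of 1.002. Acsbg1 was the highest at 2.46, on 25 and 142.0 scaled reads. Of 5 other acyl-CoA ligases, 5 were lower, 1 of them by 2-fold or more, with a median of -0.52 that became 0.065 with the values as deposited. The lowest was Aacs, which activates acetoacetate, at -1.71, and the highest was Aasdh at -0.17. Besides Acsm1, Acsm2, Acsm3 and Acss2, then, Slc27a2 and Aacs were the related ligases past 2-fold lower with the scaling used, and none of the 4 Acsl genes in the table was.

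Acyl-CoAs made by Acsm enzymes can be joined to glycine. Of the 4 glycine conjugation genes, 3 were expressed, all 3 were lower, 1 of them by 2-fold or more, with a median log2 ratio of -0.96 (-0.54 with equal totals, -0.28 with the values as deposited). Keg1 had 52674 and 27053 scaled reads, a log2 ratio of -0.96, Glyat was the highest at -0.78 and Gm4952 the lowest at -1.78. Acsm1 and Acsm2 were lower than Keg1 and Glyat. Thioesterases undo what synthetases make. Of 13 of them, 12 were lower, 2 of them by 2-fold or more (Acot12 and Acot11), with a median of -0.40. Acot12, an acetyl-CoA thioesterase, was the lowest at -1.57, near Acsm1, and Acot3, the only one higher, was at 0.44. With equal totals the median of this list was 0.0155, so its direction depended on the scaling.

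Of 14 genes for the oxidation of short and medium chains, 14 were lower, 3 of them at least 2-fold (Acadm, Acads and Crot), with a median log2 ratio of -0.75 (-0.33 with equal totals, -0.16 with the values as deposited). That all were lower holds for the scaling used, with which 48.3% of all expressed genes were lower. The lowest was Crot, the peroxisomal carnitine octanoyltransferase, at -1.61, and the highest Acaa2 at -0.16. Acsm1, Acsm2, Acsm3, Acsm5, Acsf3 and Acss2 were below this median and Acsf2, Acss1 and Acss3 above it. The families were picked by Acsm3 and Acsf2 as extremes of fatty acid oxidation, so nothing is read from these positions. Of 12 genes that make, carry or break down coenzyme A, the shared substrate of the synthetases, 10 were lower, 4 of them by 2-fold or more (Nudt19, Pank1, Nudt8 and Coasy), and the median was -0.50, or 0.10 with the values as deposited. Nudt19, a diphosphatase that hydrolyses coenzyme A in kidney peroxisomes, had 36921 and 10157 scaled reads and the lowest log2 ratio, -1.86. Pank1, which starts the synthesis of coenzyme A, was at -1.59, Coasy, which completes it, at -1.43, and Pank2 was the highest at 0.14. The values of Nudt19 and Pank1 were close to those of Acsm2 and Acsm1.

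The routes that use the products of the Acss and Acsf3 enzymes were read in the same way. Of 12 genes of cytosolic acetyl-CoA and lipid synthesis, 5 were lower and 7 higher, with a median log2 ratio of 0.09 (0.50 with equal totals). Me1, malic enzyme, was the lowest at -1.48 and Elovl6 the highest at 0.81, and Acly, which makes cytosolic acetyl-CoA from citrate, was at -0.29. Srebf1 and Srebf2, which encode the transcription factors known to act on Acss2, were at 0.41 and 0.03 and are named here after their values were seen. Acss2, at -1.19, thus stood lower than all of these genes but Me1. Of 10 genes of mitochondrial acetyl-CoA supply, 10 were lower with the scaling used, 3 of them by 2-fold or more (Bdh1, Acat1 and Oxct1), with a median of -0.63 (-0.22 with equal totals, -0.040 with the values as deposited), from Bdh1 at -1.62 to Cs at -0.31. Acss1 at 0.04 was above all 10 of them in the same scaling.

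Of 6 propionyl-CoA breakdown genes, 6 were lower and 0 by 2-fold, with a median log2 ratio of -0.51 (0.082 with the values as deposited), from Pcca at -0.92 to Mmaa at -0.43. Acss3, which makes propionyl-CoA, was at 0.00. Of 11 genes of malonyl-CoA and mitochondrial fatty acid synthesis, 10 were lower and 0 by 2-fold, with a median of -0.50 (0.0945 with the values as deposited). Mlycd, which removes the malonyl-CoA that Acsf3 makes, was the lowest at -0.98, Ndufab1, the mitochondrial acyl carrier protein, was at -0.64 and Acacb the highest at 0.16. Acsf3 at -0.78 lay between Mlycd and the rest of that list.

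**Figure D4:**
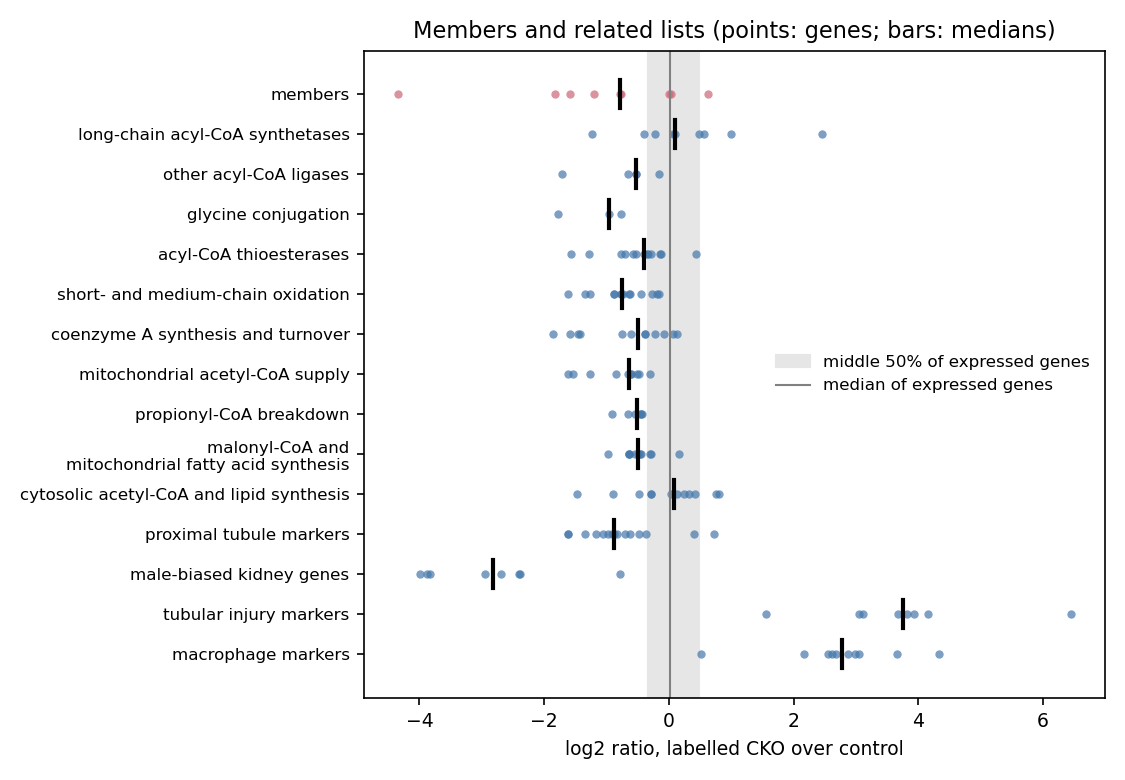
Log2 ratios of the expressed genes (points) of the 9 members, 10 lists of related enzymes and 4 lists of markers, with list medians as black bars, the middle 50% of all expressed genes in grey and their median as a line. The medians run from -2.82 for the male-biased genes to 3.75 for the injury markers, and that of the members is -0.78.

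Reads of some members can be shared with other genes. Of all distinct stretches of 100 bases in the GENCODE transcripts, 0% were found in another gene for Acsm1, Acsm2, Acsf3 and Acss1, so the paralogs of the Acsm cluster share none. For Acsm3 27.8% also lay in Eri2 on the opposite strand, and for Acss3 32.9% lay in Ppfia2. Eri2 had 287 and 392 reads and Ppfia2 16 and 34. For Acsf2 19.0% also lay in the processed pseudogene Gm5540, which had 24 and 43 reads. For Acss2 3.35% lay in Gss, Ggt7 or an antisense RNA, and Gss had 17328 and 12139 reads. For Acsm5 0.294% lay in Pdilt. Whether the counting used strand is not given in the sources used here, so the reads of Acsm3, Acss3 and Acss2, and over the 104 and 113 bases of exon that Acsm5 and Acss1 share with genes of the opposite strand, are uncertain to this extent. For Acsf2 the uncertainty lies in the mapping of reads.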

How the data were processed

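RNA-seq libraries of whole kidney, 1 control and 1 Reg-2 CKO, were grouped by their labels. Per the study's methods, alignment was by STAR 2.7.3a, counting by HTSeq and normalization by DESeq2, and the submitters' notes name mm10. The deposited values, named as normalized counts, were treated as a score, because they are whole numbers with lowest values of 35 and 51. Their median log2 ratio was 0.57, so they did not look scaled between libraries. They were taken, as an inference from these values, to be reads plus a constant, and the column minimum less 1 (34 and 50) was subtracted. CKO reads were then multiplied by the median control to CKO quotient of all genes, 0.667. Log2 ratios had a pseudocount of 1, genes needed at least 10 scaled reads in 1 library, and calls were made at 2-fold. Intervals were 95% Clopper-Pearson intervals of the CKO share of the reads of both libraries. The subtraction leaves each gene at least 1 read, so no gene can be at 0. No test between groups was possible with 1 library each. The members and lists were chosen with earlier results of these data known. Named genes were the 9 members, the target, the genes nearest to Acsm3 and Acsf2, and from each list the extremes and up to 4 others with the most control reads; 1 extreme is not reported here. Acads, Slc5a12, Ggt1, Nudt8, the Y-linked genes, the neighbours of the Acsm cluster, genes sharing sequence with members, the promoter motifs, the ratios within a library and the bands of expression were chosen after values were seen. Gene positions and promoters came from RefSeq GRCm38.p6, matched by Gene ID for 9 and 8 of the 9 genes, and transcripts from GENCODE M21. Alternatives changed the constant, the scaling, the pseudocount, the filter or the threshold. The removal of the constants, the scaling, the log2 ratios with their 2-fold calls and the intervals were first run on simulated libraries with set constants. In these, as many genes were set higher as lower, and the other steps were not simulated. Python 3.11.15, numpy 2.4.6, pandas 2.3.3, scipy 1.17.1 and matplotlib 3.10.9 were used.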

Additional observations from a re-analysis of the deposited data

How the results depend on the processing

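No paired analysis was possible because there was only 1 library in a group. Acsm1, Acsm2, Acsm3, Acsm5, Acsf3 and Acss2 were lower and Acsf2 higher under every scaling, constant and pseudocount tried. Subtracting the whole column minimum, equal upper quartiles, the median of expressed genes set to 0, and pseudocounts of 0 and 10 left the member ratios within their counting intervals, except that Acsm2 was at -1.85, -1.80 and -1.85 under the first 3 of these. Acss3 was at -0.01 with the first of them and with the median of expressed genes set to 0, and so changed sign within its interval.

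With equal totals the median log2 ratio was 0.44 over the 17682 genes kept, against 0.02 over 17469 with the scaling used. With the values as deposited it was 0.57 over all 20002 genes. Member ratios moved with it. With equal totals Acsm1, Acsm2, Acsm3 and Acsm5 were at -1.17, -1.41, -3.93 and -0.35, Acsf2 and Acsf3 at 1.04 and -0.36, and Acss1, Acss2 and Acss3 at 0.46, -0.77 and 0.42. With the values as deposited they were, in the same order, at -0.999, -1.24, -3.72, -0.17, 1.17, -0.17, 0.62, -0.60 and 0.59. The member median was -0.36 and -0.17.

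With the values as deposited, and likewise with equal totals, 1 member was at least 2-fold higher, Acsf2. At 1.5-fold 1 was higher, Acsf2, and 6 were lower (Acsm5 and Acsf3 besides the 4). Members lower numbered 2 with the values as deposited (Acsm2 and Acsm3) and 1 at 4-fold (Acsm3). Over all genes 437 were lower and 3870 higher with equal totals, and 131 and 3574 with the values as deposited. Higher genes made up 89.9% and 96.5% of these calls, against 71.4% of the 934 and 2334 reported. At 1.5-fold there were 2423 and 3801, at 4-fold 166 and 749 (61.1% and 81.9% higher), and with at least 50 scaled reads 617 were lower.

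List medians changed sign with the values as deposited, to 0.065 for other acyl-CoA ligases, 0.19 for thioesterases, 0.0945 for malonyl-CoA and mitochondrial fatty acid synthesis, 0.082 for propionyl-CoA breakdown, 0.10 for coenzyme A genes, 0.56 for markers of other nephron segments, 0.47 for vessel markers and 0.19 for hepatocyte markers. With equal totals those of thioesterases, other nephron segments and vessel markers were 0.0155, 0.39 and 0.31, and with equal upper quartiles that of other nephron segments was 0.0014. The values as deposited change the constant and the scaling together, so their differences from the main values are not 1 common shift. The median of hepatocyte markers was -0.62 with a pseudocount of 10 and -0.53 with at least 50 scaled reads.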
